A study of Mus musculus with 64 samples.

Results

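Binding of SOX2, β-catenin, LEF1, TCF7L1 and TCF7L2 was examined around Otx2, Zic2, Zic5, Dnmt3b and Pou3f1, 5 genes that mark the primed epiblast. The members were the peaks of all 60 ChIP-seq libraries whose summit lay inside the mm10 GENCODE body of one of these genes or within 30 kb on either side. They numbered 2746 of 12175735 peaks, and 491 of them were among the 20000 strongest of their library by the deposited fold, the ratio of signal over local background. Each target was assayed in 4 conditions with 3 libraries per condition. TCF7L1 and TCF7L2 carry the older names TCF3 and TCF4 in the labels.

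All cells derived from the XY HM1 TetON mouse embryonic stem cell (ESC) line, which carries the doxycycline-responsive activator and served as wild type (WT). WT cells held in 2i medium, a pair of inhibitors against MEK and GSK3, gave the naive ESC. To make caudal epiblast-like cells (CEpiLC), WT cells received FGF together with LGK974, which blocks the release of WNT ligands, then in addition the GSK3 inhibitor CHIR99021, which switches the WNT pathway on, up to 72 h. The SOX2-TetON line lacks endogenous Sox2, was isolated at clonal density and carries a SOX2 transgene in the HPRT locus that needs doxycycline. This line went through the CEpiLC protocol either on 1 µg/ml doxycycline, called SOX2-ON, or after its removal, called SOX2-OFF. By design, naive ESC and SOX2-ON had high SOX2 levels, and CEpiLC and SOX2-OFF had low ones. Naive ESC and CEpiLC also differed in medium and cell state, so in WT cells the SOX2 level cannot be told apart from these. The same limit applies to tests that join both cell lines. The loss of endogenous Sox2 and the transgene are common to SOX2-ON and SOX2-OFF, so each of these was compared only with the other. The lists hold no RNA, so neither the cell states nor the expression of the 5 genes could be checked.

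When pluripotent cells leave the naive state they switch on a set of primed epiblast genes. OTX2 is a homeodomain transcription factor that helps to drive this exit and later marks anterior identity. ZIC2 and ZIC5 are zinc finger transcription factors whose genes lie head to head, POU3F1 (OCT6) is a POU domain transcription factor, and DNMT3B is a DNA methyltransferase that methylates the genome de novo as the epiblast forms. SOX2 is an HMG box transcription factor that maintains pluripotency. In the WNT pathway β-catenin carries the signal to chromatin through the DNA-binding proteins LEF1, TCF7L1 and TCF7L2, and TCF7L1 is known mainly as a repressor in ESC.

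In mm10, Otx2 (ENSMUSG00000021848.16) lies on chromosome 14, 48657677 to 48673819, minus strand. Zic5 (ENSMUSG00000041703.7) lies on chromosome 14, 122456795 to 122465677, minus strand, and Zic2 (ENSMUSG00000061524.8) on chromosome 14, 122475435 to 122479852, plus strand. Dnmt3b (ENSMUSG00000027478.15) lies on chromosome 2, 153649450 to 153687730, plus strand, and Pou3f1 (ENSMUSG00000090125.3) on chromosome 4, 124656807 to 124660655, plus strand. The windows of Zic2 and Zic5 overlap and share sites. Summits among the 20000 strongest peaks were merged across the 60 libraries, with 150 bp on either side, into 157 sites at these genes of 570215 in the genome. The Otx2 window held 45 sites, the joined Zic2 and Zic5 window 40, Dnmt3b 44 and Pou3f1 28. Most were weakly shared, and 104 sites were found in a single library. Of the 157 sites, 27 were recurrent, with a summit in at least 3 of the 12 libraries of at least 1 target (7 at Otx2, 10 at Zic2 and Zic5, 5 at Dnmt3b and 5 at Pou3f1).

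In naive ESC, 6 sites of the members had SOX2 summits in at least 2 of 3 libraries, and the sequences of these 6 are shown because β-catenin and TCF7L1 reached the same mark at every one of them. Each is the base of the strongest summit with 100 bases on either side, read from the plus strand of mm10. Capitals mark matches to the motifs searched on both strands, which were CATTGT and CTTTGT (SOX), CTTTGAA and CTTTGAT (TCF), ATGCAAA (octamer), TAATCC (OTX) and CAGCAGG (ZIC).

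Otx2, 27.3 kb upstream, chr14:48701035-48701235: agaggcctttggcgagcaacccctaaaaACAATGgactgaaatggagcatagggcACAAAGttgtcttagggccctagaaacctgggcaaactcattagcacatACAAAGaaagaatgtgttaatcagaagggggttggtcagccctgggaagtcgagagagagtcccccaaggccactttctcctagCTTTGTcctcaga
Otx2, 10.7 kb downstream of the start, chr14:48662976-48663176: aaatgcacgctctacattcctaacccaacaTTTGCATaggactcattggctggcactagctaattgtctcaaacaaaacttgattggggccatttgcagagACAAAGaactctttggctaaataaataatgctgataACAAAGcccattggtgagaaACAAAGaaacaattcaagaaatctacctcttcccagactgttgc
Dnmt3b, 26.7 kb upstream, chr2:153622601-153622801: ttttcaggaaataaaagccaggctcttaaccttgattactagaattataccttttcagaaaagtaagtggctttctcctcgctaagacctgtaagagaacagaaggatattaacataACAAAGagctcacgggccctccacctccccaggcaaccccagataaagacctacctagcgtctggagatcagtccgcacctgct
Dnmt3b, 6.28 kb upstream, chr2:153643072-153643272: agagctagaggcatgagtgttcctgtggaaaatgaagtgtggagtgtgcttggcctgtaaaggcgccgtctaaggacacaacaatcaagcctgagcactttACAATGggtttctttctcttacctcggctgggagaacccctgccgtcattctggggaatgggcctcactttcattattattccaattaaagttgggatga
Zic5, 2.44 kb upstream, chr14:122468018-122468218: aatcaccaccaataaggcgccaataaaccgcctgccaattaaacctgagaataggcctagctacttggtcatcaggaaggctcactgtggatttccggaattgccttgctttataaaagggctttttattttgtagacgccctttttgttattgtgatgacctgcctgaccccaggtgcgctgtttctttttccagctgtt
Zic5, 31.5 kb downstream of the start, chr14:122434058-122434258: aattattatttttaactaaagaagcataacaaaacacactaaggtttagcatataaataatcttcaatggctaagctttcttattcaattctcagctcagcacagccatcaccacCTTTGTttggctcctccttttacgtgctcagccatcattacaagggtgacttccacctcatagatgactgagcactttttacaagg

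The upstream Otx2 site held 4 SOX matches and the intronic Otx2 site held 3 SOX matches and 1 octamer. The 2 Dnmt3b sites and the Zic5 site 31.5 kb downstream held 1 SOX match each, and the Zic5 site 2.44 kb upstream held no match to any of the motifs. No TCF match lay in these 6 windows. A SOX match was found in 11 of the 27 recurrent sites (40.7%) and in 46.1% of the 37362 recurrent sites of the genome. A TCF match was found in 1 of the 27 (3.70%), against 28.7% of recurrent sites in the genome, and that one was the Zic5 site 11.2 kb downstream of the start. OTX matches were found in 0 of the 27 and in 7.17% of recurrent sites in the genome, octamers in 2 of the 27 (7.41%) and 7.92%, and ZIC matches in 2 of the 27 (7.41%) and 14.5%. These counts describe letters in windows of that length and were given no test, and a missing match says only that the letters are not there.

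The lists give no read depth. They held 1628 to 991719 peaks per library with a median of 106232. Of the 60 lists 10 were shorter than 20000 and entered whole. They were 3 for β-catenin, 3 for LEF1, 2 for TCF7L1, 2 for TCF7L2 and 0 for SOX2, and 6 of the 10 were CEpiLC lists. A value of 0 below means that the library had no summit in the site among its 20000 strongest peaks, not that the protein was absent. A site was called between conditions when the folds of all 3 libraries of one lay above all 3 of the other. A two-sided exact permutation test of 3 against 3 libraries cannot go below p = 0.1, and every called site had p = 0.1. Such calls are common: between CEpiLC and naive ESC they covered 32.9% of recurrent SOX2 sites in the genome, 48.9% of those of β-catenin, 33.7% of LEF1, 57.7% of TCF7L1 and 23.3% of TCF7L2. In the same order, they covered 27.0%, 14.6%, 13.4%, 5.23% and 9.39% between SOX2-ON and SOX2-OFF. The 3 libraries of a group came from separate experiments, per the study's methods.

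**Figure D1:**
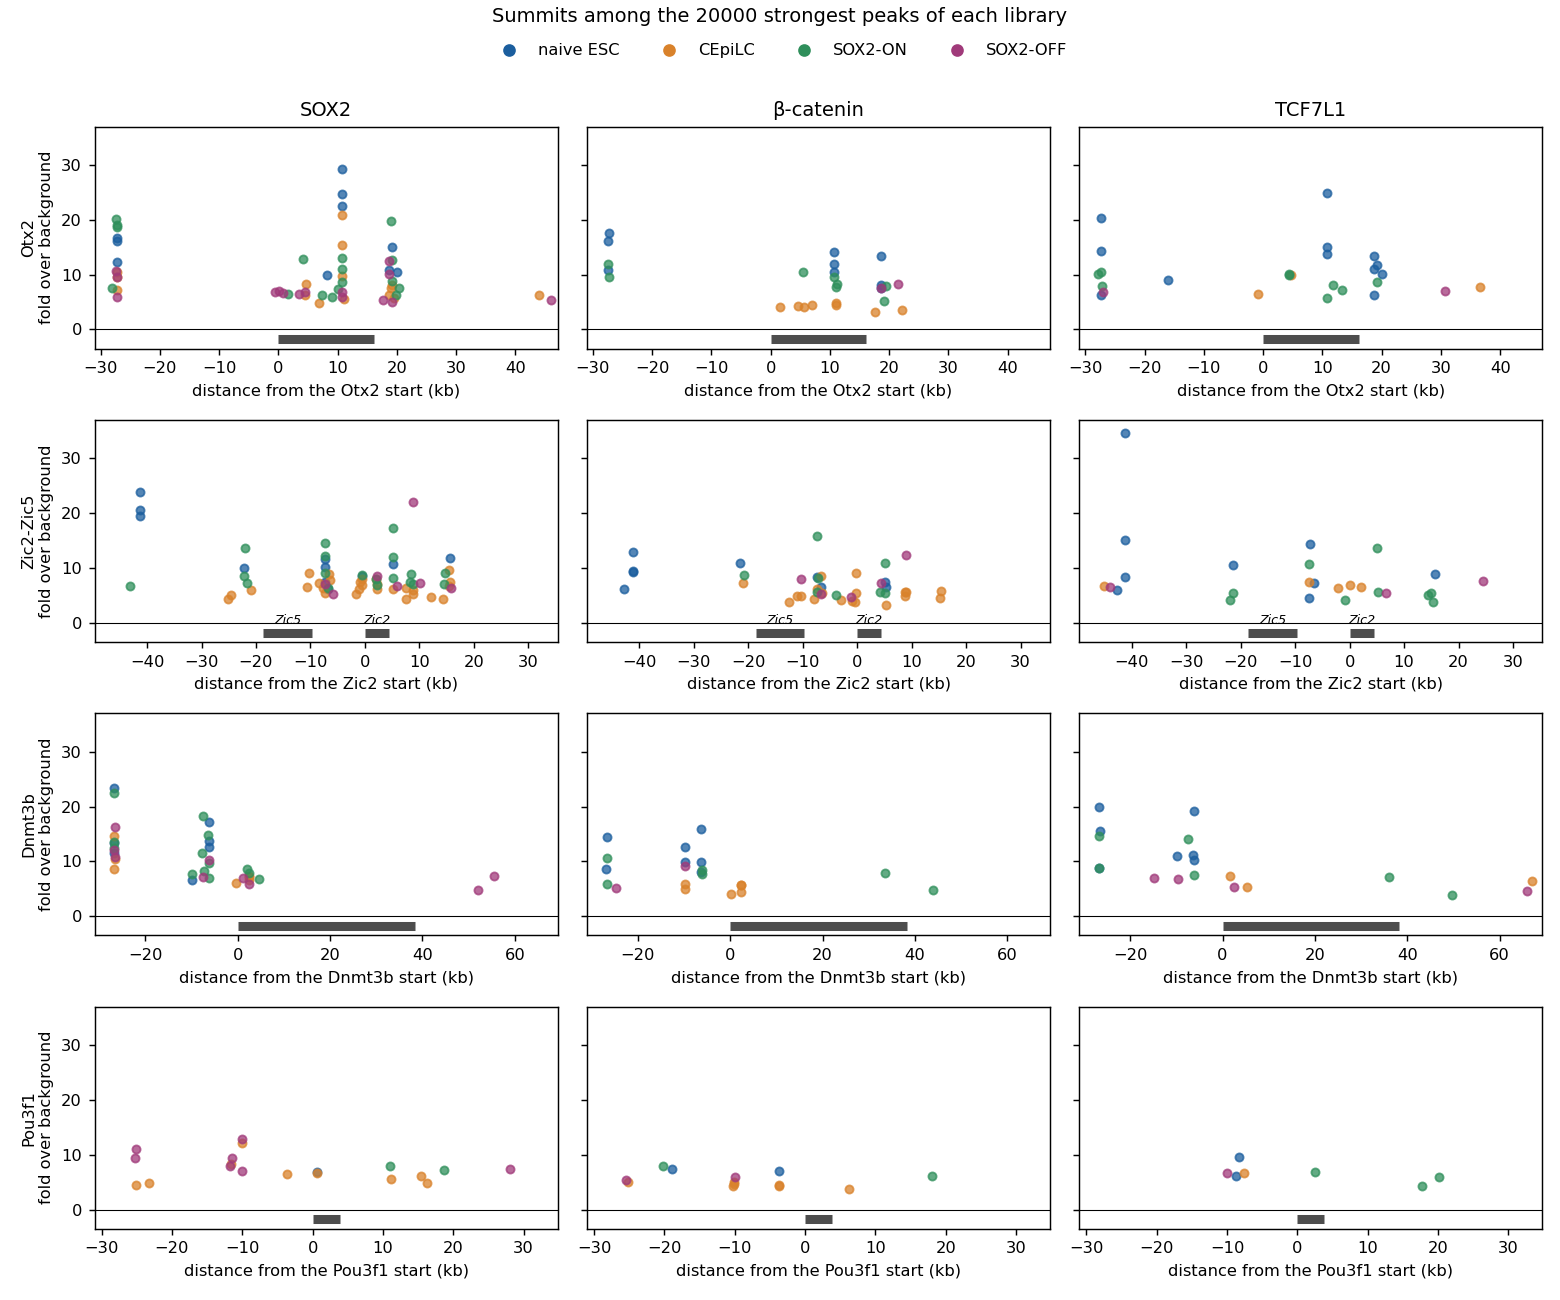
Summits of SOX2, β-catenin and TCF7L1 among the 20000 strongest peaks of each library, by distance from the start of the member in kb (upstream negative, and from the Zic2 start in the joined Zic2 and Zic5 window) and by fold over background. Each point is 1 summit in 1 library, colours are conditions and grey bars are gene bodies. High points include the SOX2 summits of naive ESC 10.7 kb into Otx2, from 22.5 to 29.2, and a TCF7L1 summit of naive ESC at 34.6 in the Zic2 and Zic5 window.

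Otx2 had 2 SOX2 sites with a higher fold where SOX2 was high, in both cell lines. The site 27.3 kb upstream of the start (chromosome 14, 48700708 to 48701466) lies in an intron of Otx2os1, a long noncoding RNA transcribed from the opposite strand, and had a summit in 25 of the 60 libraries. Its SOX2 fold was 12.3, 16.7 and 16.0 in naive ESC, 7.23, 10.5 and 9.61 in CEpiLC, 19.0, 20.2 and 18.6 in SOX2-ON and 5.86, 10.7 and 9.50 in SOX2-OFF. All 12 SOX2 libraries thus had a strong summit, and the high SOX2 libraries lay above the low ones within each cell line. The means were 15.0 ± 2.40 and 9.10 ± 1.68 for naive ESC and CEpiLC and 19.3 ± 0.830 and 8.68 ± 2.51 for SOX2-ON and SOX2-OFF (SD, n = 3 each). On the log2(fold + 1) scale CEpiLC minus naive ESC was −0.67 and SOX2-ON minus SOX2-OFF was 1.1. Folds also differed between whole SOX2 lists. The median of the 20000 strongest peaks was 11.7, 8.49 and 7.93 in naive ESC and 5.85, 6.89 and 6.84 in CEpiLC. It was 7.80, 7.58 and 9.31 in SOX2-ON and 5.51, 7.91 and 7.52 in SOX2-OFF. The part of this scale in the differences at single sites was not tested.

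At the upstream Otx2 site β-catenin and TCF7L1 were, among the 20000 strongest peaks, found where SOX2 was high and in 1 library where it was low. β-Catenin had a fold of 17.6, 10.9 and 16.1 in naive ESC and 0 in all CEpiLC libraries, 0, 9.57 and 12 in SOX2-ON and 0 in all SOX2-OFF libraries. TCF7L1 had 14.3, 6.35 and 20.4 in naive ESC, 0 in all CEpiLC libraries, 0, 10.4 and 7.93 in SOX2-ON and 6.80, 0 and 0 in SOX2-OFF. Both were called higher in naive ESC than in CEpiLC, and for both the SOX2-ON and SOX2-OFF libraries overlapped at 0. The full lists added β-catenin summits of 4.62 in SOX2-ON and 4.32 in SOX2-OFF, and a TCF7L1 summit of 4.3 in SOX2-OFF. With every deposited peak, the β-catenin folds of SOX2-ON thus lay above those of SOX2-OFF, and those of TCF7L1 still overlapped. LEF1 and TCF7L2 each had a summit there among the strongest in 1 of 12 libraries.

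The second Otx2 site lies 10.7 kb into the gene, in an intron (chromosome 14, 48662402 to 48663272), and had a summit in 24 libraries. Its SOX2 fold was 22.5, 24.7 and 29.2 in naive ESC, 20.9, 15.3 and 9.71 in CEpiLC, 11.0, 8.66 and 13.0 in SOX2-ON and 5.93, 0 and 6.79 in SOX2-OFF. The groups again did not overlap in either comparison, with differences of −0.75 and 1.64 on the log2(fold + 1) scale. β-Catenin had 10.4, 14.2 and 12 in naive ESC and 4.78, 4.53 and 0 in CEpiLC, 9.66, 0 and 7.83 in SOX2-ON and 0 in all SOX2-OFF libraries. TCF7L1 had 15.0, 13.7 and 24.9 in naive ESC and 0 in all CEpiLC and SOX2-OFF libraries, with 5.83 in 1 SOX2-ON library. By rank within a list in place of fold, SOX2 in CEpiLC and naive ESC overlapped at both Otx2 sites, with ranks of 497 to 1265 and 547 to 4571 at the intronic site.

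In the test of high against low SOX2, which shuffles libraries within each cell line (400 assignments, two-sided), both Otx2 sites reached the smallest p the exact permutation test allows for SOX2, 0.005. The adjusted p over all 23160 recurrent SOX2 sites was 0.0784 at both. With every deposited peak used as a value, it was 0.0381 at both sites and at 1 further site in the Zic2 and Zic5 window (chromosome 14, 122453042 to 122453572). These 3 of 22 sites stand beside 13.1% of recurrent SOX2 sites in the genome that passed under that setting. Under the other settings of this permutation test no SOX2 site of the members passed. The smallest adjusted p was 0.110 with the 10000 strongest peaks, 0.157 with rank in place of fold and 0.381 with shuffling within same-numbered pairs. For β-catenin the upstream Otx2 site had exact permutation p = 0.02 and adjusted p = 0.12, which became 0.0475 with every deposited peak, there and at the Dnmt3b site 26.7 kb upstream. These 2 of 14 stand beside 10.5% of recurrent β-catenin sites in the genome, so neither count sets the members apart. Among the 20000 strongest peaks no site of the genome passed an adjusted p of 0.05 for any target (0 of 23160 for SOX2, percent called 0.00). Unadjusted p values under 0.05 were found at 4 of 22 sites of the members for SOX2, where the genome had 16.5%, and at 3 of 14 for β-catenin, where it had 19.3%.

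A pair of further sites lies past the 3′ end of Otx2. At 18.7 kb from the start (chromosome 14, 48654927 to 48655395, between genes) β-catenin had 13.3, 8.15 and 7.56 in naive ESC and TCF7L1 had 11.1, 6.37 and 13.4, and both had 0 in all CEpiLC libraries, where the full lists held 1 TCF7L1 summit of 3.4. SOX2 at that site was found in 1, 1, 0 and 2 of 3 libraries of naive ESC, CEpiLC, SOX2-ON and SOX2-OFF. At 19.1 kb (chromosome 14, 48654162 to 48654903, between genes) SOX2 had 8.91, 12.7 and 19.7 in SOX2-ON against 4.98, 0 and 0 in SOX2-OFF, and was called. In WT cells SOX2 had 0, 15.1 and 0 there in naive ESC and 8.03, 0 and 7.58 in CEpiLC. β-Catenin was there in 2 SOX2-ON libraries, with folds of 7.93 and 5.26. The full lists added β-catenin summits of 4.77, 5.09 and 5.37 in naive ESC, 5.92 in SOX2-ON and 6.5 in SOX2-OFF.

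**Figure D2:**
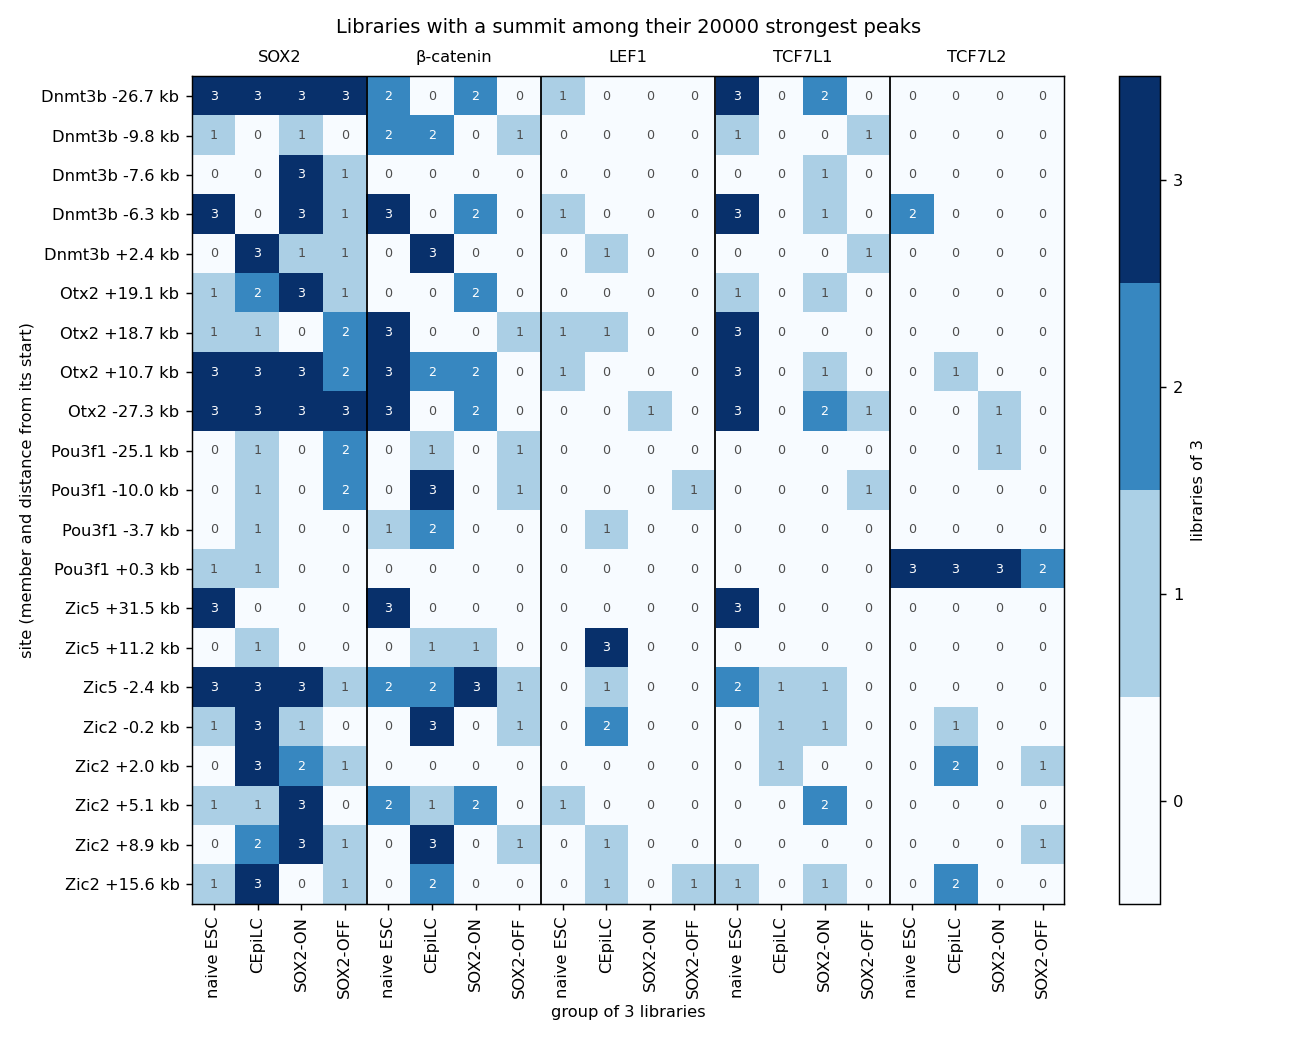
Number of libraries of 3 (colour and digit) with a summit among their 20000 strongest peaks, for each site named in the text (rows, by member and distance from its start) and each group of target and condition (columns). SOX2 reached 3 of 3 in every condition at the sites 26.7 kb upstream of Dnmt3b and 27.3 kb upstream of Otx2, and at the Pou3f1 start TCF7L2 was found in 11 of 12 libraries and SOX2 in 2.

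Around Zic2 and Zic5 some sites were seen in naive ESC and not in CEpiLC, and others in CEpiLC and not in naive ESC. One with high folds in naive ESC lies 31.5 kb from the Zic5 start, past its 3′ end and between genes (chromosome 14, 122433953 to 122434308). Its nearest protein-coding start is that of Gm5089. There SOX2 had 23.9, 19.6 and 20.6, β-catenin 9.23, 9.48 and 12.9 and TCF7L1 15.0, 8.31 and 34.6 in naive ESC. All 27 libraries of these 3 targets in the other conditions had 0. For these targets the full lists added weak summits in SOX2-ON only, with SOX2 folds of 5.73 and 4.01 and a β-catenin fold of 4.18. The summits of the 3 proteins fell within 55 bp of the strongest one.

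Nearer the genes, the site 2.44 kb upstream of Zic5, between the 2 genes (chromosome 14, 122467612 to 122469202), was the most shared of this window with 23 libraries. SOX2 had 11.7, 7.42 and 10.1 in naive ESC, 8.98, 7.79 and 5.48 in CEpiLC, 9.04, 12.2 and 14.5 in SOX2-ON and 0, 0 and 7.04 in SOX2-OFF. Only SOX2-ON against SOX2-OFF was called, with means of 11.9 ± 2.73 and 2.35 ± 4.06 (SD, n = 3) and a log2(fold + 1) difference of 2.67. β-Catenin was called in that comparison at this site and at no other site of the members, with 8.26, 5.55 and 15.8 in SOX2-ON and 0, 0 and 5.34 in SOX2-OFF. One of those β-catenin SOX2-OFF lists held only 3423 peaks and no peak of any member, and the call was lost when all 6 lists were shortened to that length. It was also lost with all deposited peaks, where SOX2-OFF had 5.87, 0 and 5.34. This site is 1591 bp wide, and β-catenin summits lay from 64 bp on one side to 934 bp on the other side of the strongest one. SOX2 summits lay up to 842 bp from the strongest one. The SOX2 folds of 8.98 and 7.79 in CEpiLC came from such distant summits. The SOX2 folds of naive ESC, SOX2-ON and SOX2-OFF came from summits near it. The SOX2 comparison of CEpiLC with naive ESC at this site thus joins separate positions, and each position was not tested alone.

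The site over the Zic2 start (175 bp upstream of it, chromosome 14, 122474178 to 122475684) had its strong summits mainly in CEpiLC. β-Catenin had 9.05, 3.80 and 5.51 in CEpiLC and 0 in all naive ESC libraries, and SOX2 had 7.92, 7.42 and 6.87 in CEpiLC against 0, 0 and 8.50 in naive ESC. LEF1 was among the strongest peaks there in 2 CEpiLC libraries, with 4.18 and 4.67, and the full lists held LEF1 summits of 4.89 in naive ESC and 6.53 in SOX2-ON. In the full lists naive ESC also had β-catenin summits at this site, with folds of 3.23, 5.62 and 4.44. At 2.02 kb, in the Zic2 intron, SOX2 had 7.11, 7.96 and 6.19 in CEpiLC and 0 in naive ESC, in the full lists as well, and was also found in 2 SOX2-ON libraries and 1 SOX2-OFF library. TCF7L2 was found at that intronic site in 2 of 3 CEpiLC libraries, with folds of 6.69 and 9.18.

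Past the Zic2 end, SOX2 at 5.13 kb was strong in SOX2-ON, with 12, 8.19 and 17.3, and 0 in all SOX2-OFF libraries, and was called. In WT cells SOX2 had summits at this site of 10.8 in replicate 2 of naive ESC and 6.24 in replicate 1 of CEpiLC. At 8.86 kb β-catenin had 4.98, 5.72 and 5.67 in CEpiLC and 0 in naive ESC, and was called. In SOX2-OFF, replicate 3 had higher folds there, with 12.4 for β-catenin, 22 for SOX2 and 10.5 for TCF7L2. The other SOX2-OFF libraries of these targets had 0 among the strongest peaks. SOX2 at 8.86 kb had 8.83, 7.08 and 7.42 in SOX2-ON, 5.28, 0 and 5.97 in CEpiLC and 0 in naive ESC. LEF1 had 1 recurrent site among all the members, 11.2 kb from the Zic5 start and past its 3′ end (chromosome 14, 122454348 to 122454788). It had folds of 6.07, 5.32 and 8.95 in CEpiLC and 0 in the 9 other LEF1 libraries, and it is the site with the TCF match. In the full lists LEF1 also had summits there of 5.04 in naive ESC, 4.2 in SOX2-ON and 3.29 in SOX2-OFF. The sites at 31.5 and 11.2 kb of Zic5, at 2.02 and 8.86 kb of Zic2 and at 7.58 kb upstream of Dnmt3b were added to the named sites after their values had been seen.

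**Figure D3:**
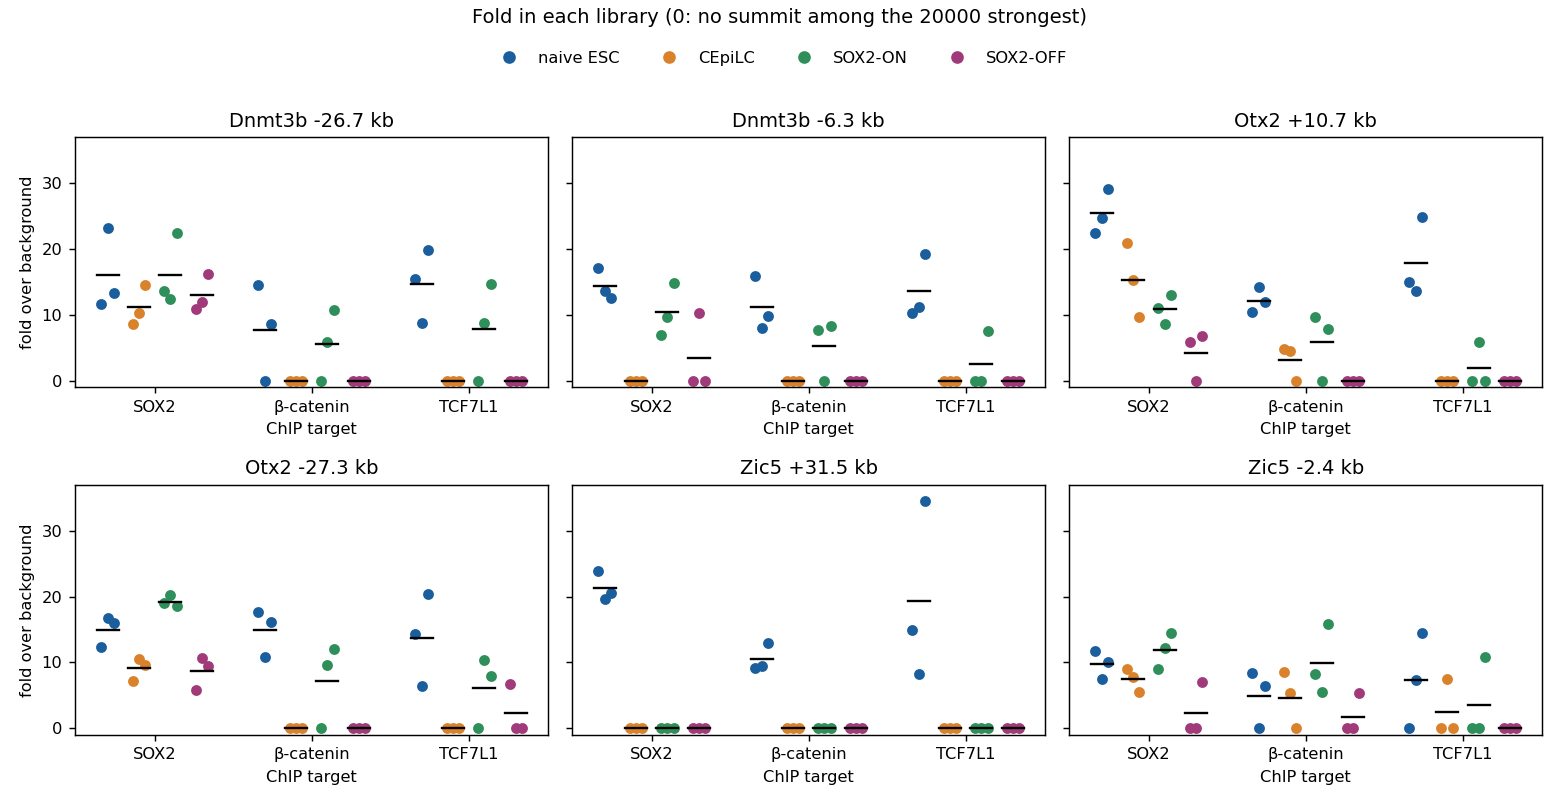
Fold over background in each library (points, coloured by condition) at 6 sites for SOX2, β-catenin and TCF7L1, with black lines for the mean of 3 libraries. A value of 0 stands for no summit among the 20000 strongest peaks. SOX2 was above 0 in all 12 libraries at the upstream Otx2 site and at the Dnmt3b site 26.7 kb upstream, where β-catenin was 0 in all CEpiLC and SOX2-OFF libraries.

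Of the 5 Dnmt3b sites described, 4 lie upstream of the gene. The most shared, with 22 libraries, 26.7 kb upstream and inside an intron of Commd7 (chromosome 2, 153622467 to 153622949), was bound by SOX2 in all 12 libraries and no difference between conditions was called. SOX2 had 11.6, 23.3 and 13.4 in naive ESC, 8.67, 10.3 and 14.6 in CEpiLC, 13.6, 12.4 and 22.4 in SOX2-ON and 10.9, 12 and 16.2 in SOX2-OFF. The groups overlapped in both comparisons, with exact permutation p = 0.3 and 0.5. TCF7L1 at the same place had 15.5, 8.82 and 19.9 in naive ESC, 0, 8.74 and 14.7 in SOX2-ON and 0 in all 6 CEpiLC and SOX2-OFF libraries, in the full lists as well. β-Catenin had 14.5, 0 and 8.57 in naive ESC, 0, 5.88 and 10.7 in SOX2-ON and 0 in the other 6. The full lists also held β-catenin summits of 4.96 in naive ESC, 6.47 in SOX2-ON and 4.5 and 3.04 in SOX2-OFF. TCF7L1 was called higher in naive ESC than in CEpiLC and was not called between SOX2-ON and SOX2-OFF, and SOX2 and β-catenin were called in neither comparison. For CEpiLC minus naive ESC and SOX2-ON minus SOX2-OFF, the differences in SOX2 were −0.45 and 0.26 on the log2(fold + 1) scale, and those in TCF7L1 were −3.91 and 2.42.

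At 6.28 kb upstream of Dnmt3b, between genes (chromosome 2, 153642965 to 153643452, 19 libraries), all 3 proteins were called higher in naive ESC. SOX2 had 17.1, 13.7 and 12.6 in naive ESC, 0 in all CEpiLC libraries, 6.94, 9.62 and 14.8 in SOX2-ON and 0, 10.3 and 0 in SOX2-OFF. In the full lists SOX2 in CEpiLC had weak summits of 3.48 and 4.97. β-Catenin had 15.9, 8.09 and 9.87 in naive ESC and TCF7L1 10.3, 11.2 and 19.3, and both were 0 in every CEpiLC and SOX2-OFF library. TCF7L2 appeared in 2 of 3 naive ESC libraries, with folds of 6.09 and 9.67. At 7.58 kb upstream SOX2 had 8.20, 11.6 and 18.3 in SOX2-ON against 0, 0 and 7.17 in SOX2-OFF, and 0 in all WT libraries. At 9.79 kb upstream β-catenin was found in 2 naive ESC, 2 CEpiLC and 1 SOX2-OFF libraries and was not called.

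Inside Dnmt3b, 2.41 kb from the start in an intron (chromosome 2, 153651632 to 153652032), the order was the opposite. SOX2 had 7.20, 6.66 and 7.29 in CEpiLC and 0 in naive ESC, and β-catenin 4.46, 5.68 and 5.69 in CEpiLC and 0 in naive ESC. The full lists had SOX2 summits of 8.97 and 4.67 in 2 naive ESC libraries, and no β-catenin summit in naive ESC. The 8.97 lay below the fold of 9.89 at which that library, with 907862 peaks, was limited to its strongest 20000, and with all deposited peaks the groups overlapped.

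Pou3f1 had 3 recurrent SOX2 sites, where Otx2 had 6, Zic2 and Zic5 had 9 and Dnmt3b had 4, and its most shared site was a TCF7L2 site at its start. The site 285 bp downstream of the start (chromosome 4, 124656656 to 124657539) covers the untranslated region of Pou3f1 and an exon of the antisense transcript Gm2164. TCF7L2 had 9.53, 13.7 and 10.4 in naive ESC, 6.03, 17.8 and 19.5 in CEpiLC, 7.50, 4.76 and 14.2 in SOX2-ON and 5.34, 4.11 and 0 in SOX2-OFF. It was among the 20000 strongest in 11 of 12 libraries and, with a fold of 6.33, in the full list of the other. No difference between conditions was called, with means of 11.2 ± 2.19 and 14.4 ± 7.32 in naive ESC and CEpiLC (exact permutation p = 0.8) and 8.82 ± 4.86 and 3.15 ± 2.80 in SOX2-ON and SOX2-OFF (SD, n = 3, p = 0.2). In the strongest lists β-catenin, LEF1 and TCF7L1 had no summit there in any of their 36 libraries, and SOX2 had one in 2 of 12, at least 279 bp from the TCF7L2 summit.

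**Figure D4:**
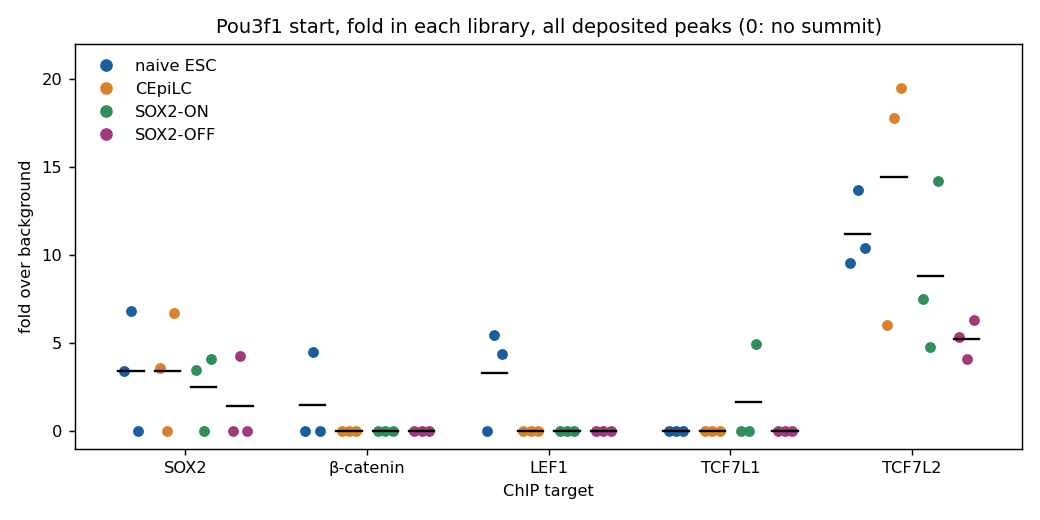
Fold over background at the Pou3f1 start in each library for the 5 targets, from all deposited peaks, with black lines for the mean of 3 libraries and 0 for no summit. TCF7L2 had a summit in all 12 libraries, from 4.11 to 19.5, and the other targets had at most 6.82.

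The other Pou3f1 sites lie in introns of Gm2164. At 10.0 kb upstream (chromosome 4, 124646481 to 124646975) β-catenin had 4.63, 4.33 and 4.94 in CEpiLC and 0 in naive ESC, and was called. SOX2 at that site was found in 1 CEpiLC library, with 12.2, and 2 SOX2-OFF libraries, with 12.9 and 7.04. At 25.1 kb upstream SOX2 was found in 2 SOX2-OFF libraries, with 9.37 and 11.0, and in 1 CEpiLC library, and at 3.67 kb upstream β-catenin was found in 1 naive ESC and 2 CEpiLC libraries. None of these SOX2 groups was apart.

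Counted over the members, SOX2 was called higher in naive ESC at 4 of 22 recurrent sites and in CEpiLC at 2 of 22, where 18.2% and 14.6% of recurrent sites in the genome were called. It was called higher in SOX2-ON at 6 of 22 and in SOX2-OFF at 0 of 22, against 22.7% and 4.27% in the genome. β-Catenin was called higher in naive ESC at 5 of 14 and in CEpiLC at 4 of 14, against 29.9% and 19.0%, and higher in SOX2-ON at 1 of 14 and in SOX2-OFF at 0 of 14, against 12.9% and 1.78%. TCF7L1 was called higher in naive ESC at 6 of 8 and in CEpiLC at 0 of 8, against 57.1% and 0.611%, and in neither direction between SOX2-ON and SOX2-OFF (2.79% and 2.43%). LEF1 was called at its 1 site in CEpiLC (33.4%, with 0.353% in naive ESC), a site that passed the filter only through its 3 CEpiLC libraries and so had to be called, and at 0 between SOX2-ON and SOX2-OFF (9.90% and 3.53%). TCF7L2 was called at 0 of 3 (17.4% and 5.96% between CEpiLC and naive ESC, 5.40% and 3.99% between SOX2-ON and SOX2-OFF). Other sites whose 3 summits were all in 1 condition, such as the Zic5 site 31.5 kb downstream, likewise entered through it. With 1 to 22 sites per target, these counts lie near the shares of the genome and do not set the members apart.

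Rank in place of fold gave 2 SOX2 sites higher in naive ESC and 3 in CEpiLC, and the 10000 strongest peaks gave 4 and 0. The number of β-catenin sites higher in CEpiLC went from 4 to 1 with a −log10 q of at least 5. List length bears on these counts. When the 6 β-catenin lists of WT cells were shortened to the shortest of them, 10930 peaks, the 5 calls in naive ESC were kept and the 4 in CEpiLC were lost. One CEpiLC list of TCF7L1 held 1628 peaks and no peak of any member, and with all 6 lists shortened to that length 0 of the 6 calls were left. Without replicate 1, which holds that list, all 4 remaining lists reached 20000 and all 6 sites were called.

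Across the members, SOX2 and β-catenin shared some merged sites in 3 of the 4 conditions, though their summits within a site could lie apart. Of sites with SOX2 in at least 2 of 3 libraries, β-catenin reached 2 of 3 at 6 of 6 in naive ESC, 6 of 12 in CEpiLC, 7 of 13 in SOX2-ON and 0 of 7 in SOX2-OFF. Over all sites of the genome these shares were 55.7%, 39.5%, 36.5% and 39.5%. TCF7L1 reached it at 6 of 6, 0 of 12, 3 of 13 and 0 of 7, and over the genome at 60.6%, 12%, 41.2% and 36.7%. LEF1 did so at 0, 1, 0 and 0 of these SOX2 sites. The β-catenin lists of SOX2-OFF include the one with 3423 peaks and no member, so that 2 of the remaining 2 were needed there. The same holds for TCF7L1 in CEpiLC, where 1 list had 1628 peaks and no member. The part of list length in these shares was not tested.

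Counts of summits per locus gave a different view of Zic2, Zic5 and Pou3f1. In the Zic2 window SOX2 had 3, 2 and 3 summits among the 20000 strongest in naive ESC, 12, 8 and 8 in CEpiLC, 6, 6 and 6 in SOX2-ON and 1, 0 and 6 in SOX2-OFF. In the Zic5 window, which shares most of these, it had 4, 3 and 4 in naive ESC and 12, 8 and 8 in CEpiLC. In the Pou3f1 window it had 0, 1 and 0 in naive ESC and 3, 2 and 4 in CEpiLC. These 3 of 5 loci had more SOX2 summits in every CEpiLC library than in any naive ESC library, against 9.05% of the 20306 protein-coding loci with a summit. Since the Zic2 and Zic5 windows overlap and count largely the same summits, the 3 are not separate loci. Otx2 and Dnmt3b overlapped. The count fell to 1 of 5 with the 10000 strongest peaks and to 0 of 5 with all deposited peaks, so it describes the strongest peaks only.

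TCF7L2 had 0 summits in the Zic2 window in every naive ESC library and 2, 3 and 2 in CEpiLC, and 0, 0 and 1 against 2, 3 and 2 in the Zic5 window. These 2 windows overlap and are not separate loci. Loci higher in CEpiLC made up 1.06% for TCF7L2. Neither was called with the 10000 strongest peaks. β-Catenin had more summits in SOX2-ON than in SOX2-OFF at Dnmt3b (2, 2 and 2 against 1, 0 and 1) and at Otx2 (3, 2 and 3 against 1, 0 and 1), where 4.93% of loci were called in that direction. With the lists shortened to 3423 peaks, neither was called. LEF1 and TCF7L1 had 0 of 5 loci called in both comparisons. With same-numbered libraries paired, TCF7L1 had 1 of 5 called between SOX2-ON and SOX2-OFF, at Zic5, with 1, 6 and 2 summits against 0, 1 and 1.

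**Figure D5:**
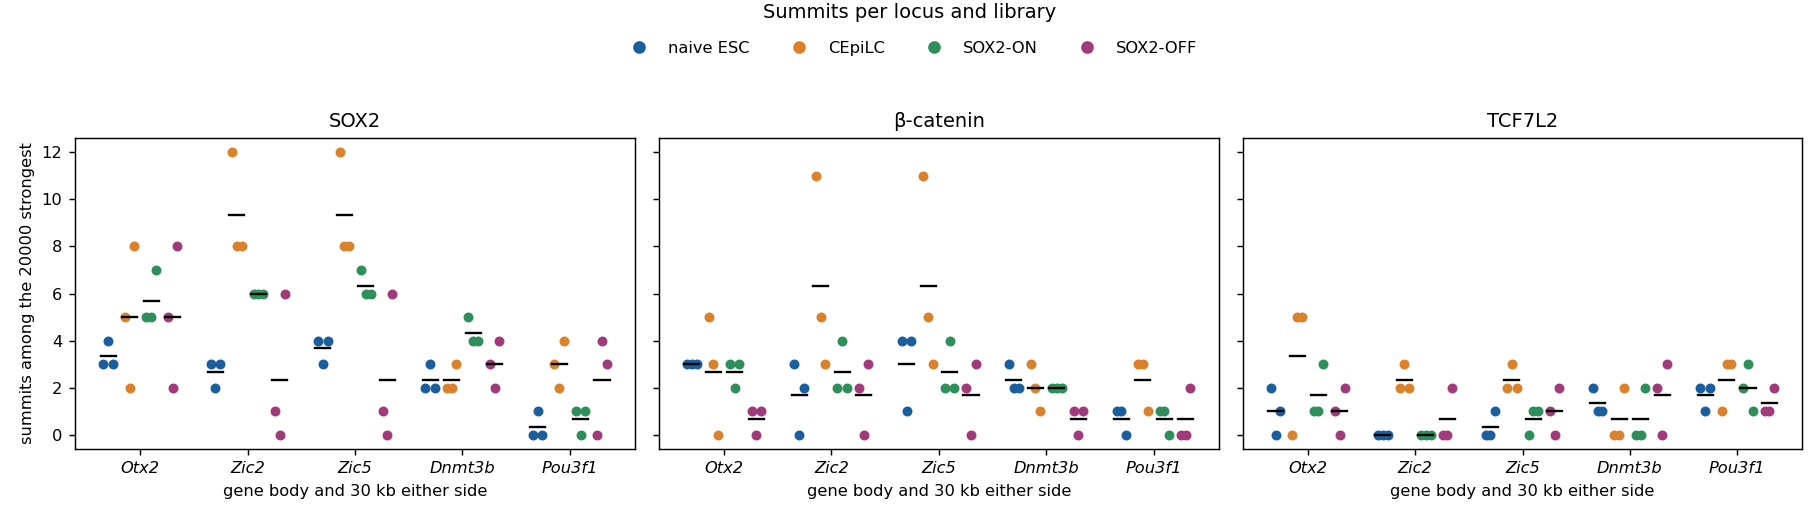
Number of summits among the 20000 strongest peaks within each gene body and 30 kb either side, per library (points, coloured by condition), for SOX2, β-catenin and TCF7L2, with black lines for the mean of 3 libraries. Zic2 and Zic5 share most of their window. SOX2 in CEpiLC had 8 to 12 summits there, above the 2 to 4 of naive ESC.

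Other genes of the primed epiblast were compared in the same way, as a list of 9 genes. For SOX2, 1 of 9 had more summits in CEpiLC and 0 in naive ESC, and for β-catenin 0 of 9 were called in either direction. Of 9 naive pluripotency genes, 3 had more SOX2 summits in naive ESC and 1 in CEpiLC, where 5.55% and 9.05% of loci were called. For β-catenin 6 of 9 had more summits in naive ESC (10.0% of loci) and for TCF7L1 5 of 9 (13.7%), with 0 of 9 in CEpiLC for both. Of 11 paralogs of the members, 6 had more SOX2 summits in CEpiLC and 1 in naive ESC. Dnmt3a is in both this list and that of other primed epiblast genes and is the 1 gene called in the latter. The median difference in SOX2 summits between CEpiLC and naive ESC was 2.67 per library for the members, 0.667 for the other primed epiblast genes, 3.67 for the paralogs and −2.00 for the naive pluripotency genes, with 0 over all loci tested.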

How the data were processed

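ChIP-seq peak lists of 60 libraries were analysed (5 targets, 4 conditions, 3 replicates each). The authors aligned reads to mm10 and called narrow peaks with MACS2 in each library separately, without pooling replicates. The deposited fold is a ratio, the enrichment of a summit over its local background. The authors also give a −log10 p-value, a −log10 q-value and a score that follows the latter. Read counts were not used here and the depth is unknown. Which of the 4 inputs served each library is not stated in the sources read.

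The members and gene lists were chosen with earlier results of these data known. Peaks were ranked by fold, then by −log10 p, and the 20000 strongest were kept. Their summits were extended by 150 bp and merged into sites over all libraries. A site was tested for a target when at least 3 of its 12 libraries had a summit there. Groups were called apart when all 3 values of one exceeded all 3 of the other, with two-sided exact permutation tests on log2(fold + 1). High against low SOX2 was tested by permutation within each cell line, with Benjamini-Hochberg adjustment over all sites of a target. The named sites were the 4 per locus with summits in most libraries, and any site called for SOX2 or β-catenin in both comparisons in the direction of the SOX2 level. Distances are from the GENCODE start of the nearest member. Sequences came from the GRCm38.p6 reference, and 0 summits lay past a chromosome end. In 1 of 10 comparisons, TCF7L1 in SOX2-ON against SOX2-OFF, libraries of the same number deviated together, with correlations of 0.223, 0.169 and 0.131, all above 0.1.

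On simulated SOX2 libraries (23160 sites, 200 of them changed by 3 on the log2 scale, naive ESC against CEpiLC), 100% of the changed sites and 9.68% of the unchanged sites were called. A change of 3 is larger than the SOX2 differences at the upstream and intronic Otx2 sites. The 100% therefore does not show how often differences of their size would be called. The 9.68% lies near 0.1, the smallest p of the exact permutation test of 3 against 3 libraries. Alternatives were the 10000 strongest peaks, all peaks, a −log10 q of at least 5, overlap in place of the summit, rank in place of fold, lists shortened to the shortest compared, leaving out each replicate, and the replicate block. Python 3.11.15, numpy 2.4.6 and pandas 2.3.3 were used.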

Additional observations from a re-analysis of the deposited data

How the results depend on the processing

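Of 82 differences at named sites, none that was called changed sign under any of 9 alternatives, and 673 of 738 alternative values moved by less than 1 SD or, for rank, kept their call. Of 218 alternative counts of called sites or loci, 160 stayed within 1.5 times. The cause of the others was not tested, apart from list length where lists were shortened.

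Counts of the members' sites were as follows. In CEpiLC against naive ESC, β-catenin went from 9 to 4 with the 10000 strongest peaks and to 5 with the shortest compared list, and TCF7L1 from 6 to 3 and to 0. LEF1 went from 1 to 0 with the shortest list and with a −log10 q of at least 5, and TCF7L2 from 0 to 1 with all peaks. In SOX2-ON against SOX2-OFF, β-catenin went from 1 to 0 with the 10000 strongest peaks and with the shortest list. With all peaks it went to 2, neither of them the site called before. TCF7L2 went from 0 to 1 with the replicate block. The test of high against low SOX2 went from 0 to 3 sites for SOX2 and from 0 to 2 for β-catenin with all peaks, where 13.1% and 10.5% of sites in the genome passed.

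Counts of the members' loci, of 5 with the overlapping Zic2 and Zic5 windows counted as 2, were as follows. In CEpiLC against naive ESC, SOX2 went from 3 to 1 with the 10000 strongest and to 0 with all peaks, and TCF7L2 from 2 to 0 with the 10000 strongest, all peaks and the shortest list. β-Catenin went from 0 to 2 with the 10000 strongest, the shortest list and the replicate block, and to 1 with all peaks and with a −log10 q of at least 5. LEF1 went from 0 to 2 with all peaks and the shortest list. In SOX2-ON against SOX2-OFF, β-catenin went from 2 to 0 with the 10000 strongest, all peaks and the shortest list and to 1 with a −log10 q of at least 5. With the 10000 strongest, SOX2 and LEF1 went from 0 to 2, and with the replicate block LEF1 went from 0 to 2 and TCF7L1 from 0 to 1.

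Leaving out 1 replicate number gave, for sites in CEpiLC against naive ESC, 7 to 10 for SOX2 and 0 to 2 for TCF7L2, and in SOX2-ON against SOX2-OFF 8 to 11 for SOX2, 2 to 3 for β-catenin, 0 to 3 for TCF7L1 and 0 to 1 for TCF7L2. For loci in CEpiLC against naive ESC it gave 0 to 3 for β-catenin, LEF1 and TCF7L1 and 2 to 4 for TCF7L2, and in SOX2-ON against SOX2-OFF 0 to 3 for SOX2, LEF1 and TCF7L1 and 0 to 1 for TCF7L2. A call of 2 against 2 libraries needs fewer values to lie apart. The test of high against low SOX2 could not be run this way, since an exact permutation test over 36 assignments cannot go below 0.0556.

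Same-numbered libraries were taken as pairs in 1 of 10 comparisons, where the block changed no site call and added 1 locus, and in 6 of 10 each library correlated best with its own number. The shortened lists and all alternatives for loci were chosen after seeing the data. Depth, antibody efficiency and list length cannot be told apart with these files, and 3 libraries per group limit every exact permutation test of 2 conditions to p = 0.1.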
